A study of Mus musculus with 2 samples.

Results

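Pericentral hepatocyte nuclei are described here in 2 single-nucleus RNA libraries of regenerating mouse liver, 1 labelled wild-type and 1 labelled Cox10-/-. A nucleus was taken as pericentral when it had at least 2000 UMIs (unique molecular identifiers, 1 per captured transcript), when Cps1 and Cyp2e1 together gave at least 0.5% of its UMIs, which marks a hepatocyte, and when it had at least 4 UMIs summed over Glul, Slc1a2 and Lgr5. Of 10615 nuclei, 176 met the rule, 66 of 5448 wild-type and 110 of 5167 Cox10-/- nuclei. They were set against hepatocyte nuclei of the same library that passed the first 2 limits and had 0 UMIs over the 3 marker genes, called marker-free nuclei below, of which there were 3181 wild-type and 435 Cox10-/-. The nuclei were chosen by their UMIs of Glul, Slc1a2, Lgr5, Cps1 and Cyp2e1, so the levels of these genes are a description and support nothing.

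All mice carried a floxed allele of Cox10, a gene needed to build cytochrome c oxidase, and were given AAV8-GFP or AAV8-Cre by retro-orbital injection. AAV8 is an adeno-associated virus that mainly infects hepatocytes, so other cells of the liver can keep the gene. Virus preceded a 70% partial hepatectomy, in which most liver lobes are cut away, by 4 weeks, and the labels do not state which animal received which virus. The protocol places dissection 4 days after surgery and a sample characteristic says 4 weeks, which leaves the stage of regrowth unknown. Each group is 1 animal and 1 library of the 10x Chromium 3' v3.1 kit, with 7000 nuclei loaded after a 70 µm strainer. Genotype, animal and preparation therefore cannot be told apart, no test between groups was made, and every interval in parentheses is a 95% interval that covers counting error only.

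In the liver lobule, blood runs from the portal triad to the central vein, and hepatocytes divide their work along that path. Endothelial cells of the central vein release Wnt ligands and R-spondin, which keep beta-catenin active in the hepatocytes next to the vein. Those cells make glutamine from residual ammonia through Glul (glutamine synthetase), take up glutamate through Slc1a2 and carry Lgr5, a receptor for R-spondins, while urea synthesis and gluconeogenesis are mostly periportal.

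Hepatocyte nuclei with at least 4 marker UMIs made up 1.66% (1.29% to 2.11%) of the 3971 wild-type and 12.5% (10.4% to 14.9%) of the 880 Cox10-/- nuclei past the first 2 limits. The limit of 2000 UMIs alone was passed by 4424 wild-type and 3179 Cox10-/- nuclei. The Cps1 and Cyp2e1 limit thus removed far more of the Cox10-/- library, and the 2 shares rest on unlike bases. Depth differed between the libraries, with a median of 3514.5 UMIs in wild-type pericentral nuclei and 6508.5 in the Cox10-/- ones, against 3198 and 3825 in their marker-free nuclei. After each nucleus was thinned to 2000 UMIs, 2.97% of wild-type and 13.1% of Cox10-/- hepatocyte nuclei had at least 2 marker UMIs. Mitochondrially encoded UMIs had a median share of 9.68% in the 66 wild-type nuclei and 3.01% in the 110 Cox10-/- nuclei, against 11.5% and 4.38% in marker-free nuclei. Among 51 markers of endothelial, stellate, myeloid, lymphoid and bile duct cells, 36 were at 0 in the wild-type pericentral nuclei, where all classes together gave 167 CPM (counts per 1000000, the UMIs of a gene scaled to all UMIs summed over a group of nuclei) and 0 to 8 UMIs per nucleus. In the Cox10-/- pericentral nuclei 18 of the 51 were at 0, the sum was 454 CPM against 1004 CPM in marker-free nuclei, and single nuclei held 0 to 27 UMIs. At least 5 such UMIs were present in 1 of 66 wild-type and 20 of 110 Cox10-/- pericentral nuclei. The libraries shared 7 cell barcodes, none of them in a pericentral nucleus, and no doublet caller was run.

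Promoters of 3 genes are shown because the first 2 chose the nuclei and Slc22a3 ranked among the first 3 of the leading genes in both libraries by the interval end nearest to 1. Each runs from 250 bases before to 50 bases after the start, is taken from RefSeq on GRCm38.p6 and is written 5′ to 3′ on the gene's strand. Capitals mark CTTTGA, the core of the site bound by Tcf and Lef factors, the DNA-binding partners of beta-catenin, or its reverse complement TCAAAG.
Glul (chr1:153899679-153899978, plus strand): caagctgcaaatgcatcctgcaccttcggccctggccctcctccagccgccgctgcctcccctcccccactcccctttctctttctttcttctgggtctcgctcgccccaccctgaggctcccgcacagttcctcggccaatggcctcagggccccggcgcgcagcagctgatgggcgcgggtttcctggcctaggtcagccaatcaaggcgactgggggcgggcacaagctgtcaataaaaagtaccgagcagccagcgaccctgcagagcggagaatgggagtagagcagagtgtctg
Slc1a2 (chr2:102706188-102706487, plus strand): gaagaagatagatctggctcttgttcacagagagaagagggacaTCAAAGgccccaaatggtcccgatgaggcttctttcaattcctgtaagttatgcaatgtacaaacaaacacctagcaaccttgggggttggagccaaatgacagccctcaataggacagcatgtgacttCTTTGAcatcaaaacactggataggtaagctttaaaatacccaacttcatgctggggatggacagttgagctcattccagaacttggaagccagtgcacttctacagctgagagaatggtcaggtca
Slc22a3 (chr17:12507655-12507954, minus strand): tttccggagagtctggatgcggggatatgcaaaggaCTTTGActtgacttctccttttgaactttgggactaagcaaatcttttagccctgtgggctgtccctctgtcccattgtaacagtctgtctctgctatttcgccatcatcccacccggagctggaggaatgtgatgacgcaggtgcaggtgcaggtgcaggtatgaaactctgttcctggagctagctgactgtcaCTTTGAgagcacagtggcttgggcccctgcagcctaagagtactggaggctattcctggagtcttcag
The Slc1a2 window held 2 matches, 1 in each orientation, the Slc22a3 window held 2, and the Glul window held 0. Of 32851 RefSeq promoter windows of 300 bases, 5257 (16.003%) held at least 1 match on either strand. Of 23 genes looked up, namely the 3 that chose the nuclei and those among the 12 farthest above the marker-free nuclei in either library, 20 had an entry and 5 had a match. These were Slc1a2, a gene of the rule, and Slc22a3, Kif26b, Meg3 and Cyp2c39. A match is a description of the letters in the window and not a binding site.

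The 3 marker genes were combined differently in the 2 libraries. In the 66 wild-type nuclei Slc1a2 ran from 0 to 37 UMIs with a median of 7, Glul from 0 to 18 with a median of 4 and Lgr5 from 0 to 4 with a median of 0. In the 110 Cox10-/- nuclei Slc1a2 ran from 0 to 80 with a median of 1, Glul from 0 to 28 with a median of 4 and Lgr5 from 0 to 7 with a median of 0. Slc1a2 was thus spread unevenly in the Cox10-/- library, where 47 nuclei had none and 30 had at least 10 UMIs, against 9 and 24 in the wild-type. Glul was the only marker gene with a UMI in 32 Cox10-/- and 6 wild-type nuclei, whereas all 3 were present in 30 and 20. Levels in CPM were 995 (880 to 1122) for Glul, 2135 (1965 to 2317) for Slc1a2 and 159 (115 to 214) for Lgr5 in wild-type pericentral nuclei. They were 787 (725 to 853), 1334 (1254 to 1419) and 152 (126 to 182) in the Cox10-/- ones.

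**Figure D1:**
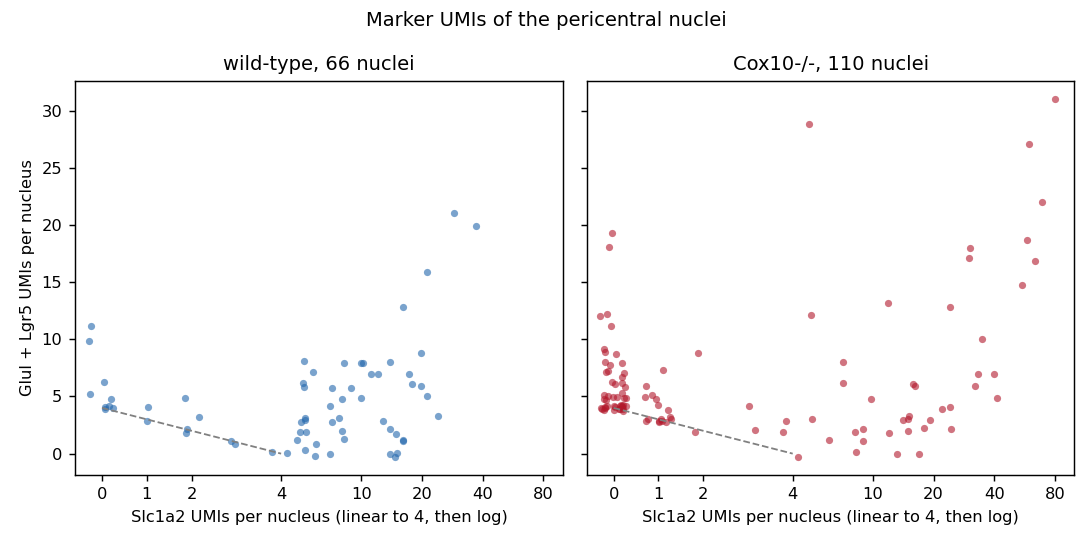
UMIs of Slc1a2 (x axis) against the sum of Glul and Lgr5 (y axis) in each pericentral nucleus of the wild-type (66) and Cox10-/- (110) library, with small jitter and a dashed line at the limit of 4. Many Cox10-/- nuclei lie at 0 Slc1a2 UMIs, while both libraries hold nuclei with 10 or more.

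Free RNA can place a UMI in a nucleus that does not transcribe the gene, so the same shares were taken in nuclei under the hepatocyte limit that had at least 5 UMIs of other cell markers (75 wild-type with a median of 2601 UMIs, 2224 Cox10-/- with a median of 2780.5). At 2000 UMIs per nucleus, Glul had a UMI in 62.1% of wild-type pericentral nuclei and 13.3% of those other nuclei, and in 78.2% and 20.5% in the Cox10-/- library. Slc1a2 was present in 78.8% against 6.67% in the wild-type and 48.2% against 5.26% in the Cox10-/- library. For Lgr5 the thinned shares were 15.2% against 0 of 75 nuclei in the wild-type, which allows a share of up to 4.00%, and 28.2% against 0.719% in the Cox10-/- library. A single Glul UMI was thus common in other cells as well, most of all in the Cox10-/- library, where Glul alone brought 32 nuclei to the limit of 4.

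Genes that did not choose the nuclei were compared as sums of UMIs. A gene entered a comparison when at least 10 UMIs were expected in the smaller sum, and it was called when the ratio of CPM was at least 1.5-fold and its whole counting interval lay on that side of 1. In the wild-type library 269 of 3977 genes (6.76%) were called higher and 150 (3.77%) lower in pericentral than in marker-free nuclei. For the Cox10-/- library these were 342 of 6930 (4.94%) and 400 (5.77%).

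A list of 44 known pericentral hepatocyte genes was higher almost throughout in the wild-type library. Of its members, 29 entered, 26 were called higher and 0 lower, with a median log2 ratio of 1.35 against 0.03 over all genes. Of its Cox10-/- values 31 entered, 15 were called higher and 2 lower, and the median was 0.54 against -0.0028 over all genes. Of 40 known periportal genes, 12 of 30 that entered were called lower and 0 higher in the wild-type (median -0.50), and 14 of 38 lower and 0 higher in the Cox10-/- library (median -0.43). Both libraries thus showed the direction in which these lists are known to be zoned, in genes that the rule did not use. The lists were chosen with earlier results of these data known, so this is a description and not independent support.

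**Figure D2:**
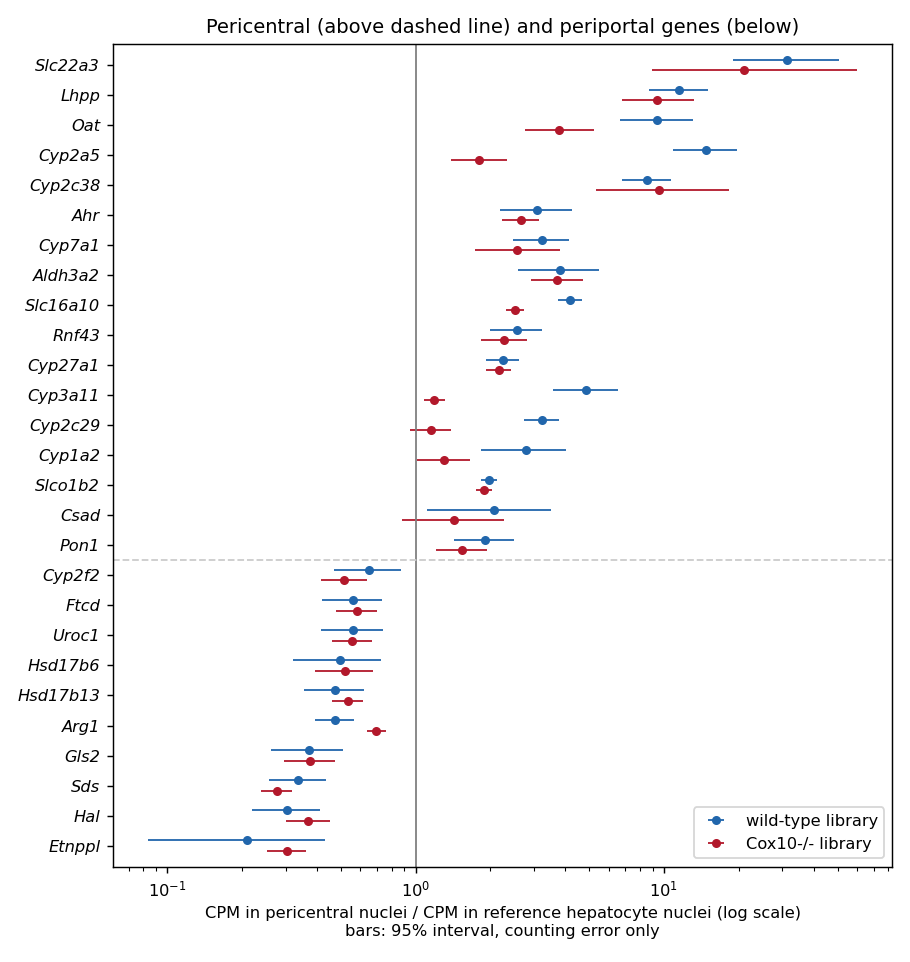
Ratio of CPM in pericentral over marker-free nuclei (log axis) for 17 pericentral and 10 periportal genes in the wild-type and Cox10-/- library, with bars giving 95% counting intervals. The pericentral genes lie mostly above 1 and the periportal genes below 1, and Lhpp, Slc22a3 and Oat lie far above 1 in both libraries. The genes shown were picked without a fixed rule and do not stand for the full lists. Over the full lists in the Cox10-/- library, 2 of 31 pericentral genes were called lower and 14 were not called. Of 38 periportal genes, 24 were not called.

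The wild-type genes farthest above the marker-free nuclei were led by an RNA from the opposite strand of a transcription factor gene. Tbx3os1 lies head to head with Tbx3, a T-box repressor, and the 2 gene models overlap on chr5:119570130-119671365 and chr5:119670669-119684724. Its level was 144 CPM in pericentral and 2.71 CPM in marker-free nuclei, 53.2-fold (32.4 to 88.3) higher, and it had a UMI in 24 of 66 nuclei. Tbx3 itself, looked up after these values were seen, had 14 UMIs, 51.8 CPM against 7.78 CPM, too few to enter, and since the use of strand in counting is not given, reads of the overlapping ends cannot be assigned. Slc22a3, an organic cation transporter (chr17:12418960-12507704), was at 115 against 3.67 CPM, 31.2-fold (18.99 to 50.9) higher, with UMIs in 20 pericentral nuclei. Airn, the RNA that runs antisense to Igf2r nearby on the same chromosome (chr17:12741311-12860136), was at 207 against 13.0 CPM, 15.9-fold (11.5 to 21.8) higher. Reads of Airn and Igf2r cannot be told apart where these genes overlap, for the same reason. Igf2r, also looked up afterwards, was at 33.3 against 24.7 CPM, a ratio of 1.35 (0.609 to 2.59).

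Enzymes of amino acid and drug metabolism followed. Lhpp, a phosphatase of phosphohistidine and pyrophosphate (chr7:132610638-132706420), was at 255 CPM in 44 of 66 nuclei against 22.2 CPM, 11.5-fold (8.68 to 15.1) higher. Oat, which lies nearby (chr7:132557478-132576398) and encodes ornithine aminotransferase, was at 163 against 17.3 CPM, 9.41-fold (6.62 to 13.1) higher. Both had low levels in the other-cell nuclei of the library, at 9.05 CPM for Lhpp and 13.6 CPM for Oat.
Cyp2a5, a coumarin hydroxylase, was at 237 against 16.1 CPM, 14.7-fold (10.9 to 19.7) higher, with UMIs in 37 nuclei. Cyp2c38 was at 352 against 41.3 CPM, 8.52-fold (6.76 to 10.6) higher, and Cyp2c37 at 144 against 18.0 CPM, 8.01-fold (5.54 to 11.3) higher. Genes of the Cyp2c cluster are near-identical in places, and how reads shared between them were counted is not given, so the split between members is uncertain.

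Signalling genes completed the wild-type group. Rcan2, a regulator of calcineurin, was at 74.0 against 2.01 CPM, 36.8-fold (19.2 to 70.1) higher. Npr2, the receptor of C-type natriuretic peptide, was at 96.2 against 6.47 CPM, 14.9-fold (9.13 to 23.5) higher, and Pparg, a nuclear receptor of lipid storage, at 74.0 against 4.46 CPM, 16.6-fold (9.37 to 28.3) higher. Sgcz, which encodes zeta-sarcoglycan, was at 226 against 8.83 CPM, 25.6-fold (18.3 to 35.5) higher, with at most 12 UMIs in any of the 24 nuclei that had it.

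Of the 12 genes farthest below the marker-free nuclei in the wild-type library, 5 encode enzymes that break down amino acids. Hal, which removes ammonia from histidine, was at 155 CPM in pericentral and 512 CPM in marker-free nuclei, 3.29-fold (2.43 to 4.58) lower. Sds, the serine dehydratase that feeds gluconeogenesis, was at 218 against 647 CPM, 2.96-fold (2.30 to 3.90) lower. Gls2, the liver glutaminase, which splits the glutamine that Glul makes, was at 137 against 369 CPM, 2.69-fold (1.95 to 3.83) lower. Etnppl, a phospholyase of phosphoethanolamine, was at 25.9 against 124 CPM, 4.78-fold (2.31 to 11.9) lower, and Sfxn1, a mitochondrial serine carrier, at 66.6 against 250.4 CPM, 3.76-fold (2.37 to 6.35) lower. Arg1, the last enzyme of the urea cycle, was at 463 against 976 CPM, 2.11-fold (1.77 to 2.54) lower. Aspg, an asparaginase, was 2.31-fold lower, Acly, which makes cytosolic acetyl-CoA for fatty acid synthesis, 2.89-fold lower, and Cxadr, the coxsackievirus and adenovirus receptor, 3.41-fold lower. Rad51b was at 289 against 637 CPM, Rasgef1b at 22.2 against 89.9 CPM and Abhd2 at 40.7 against 121 CPM. In the 75 other-cell nuclei Hal was at 289.8 and Sds at 394 CPM, both above the pericentral level.

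In the Cox10-/- library 4 of the 12 leading genes were also among the wild-type's 12, namely Slc22a3, Lhpp, Cyp2c38 and Tbx3os1. Slc22a3 was at 64.2 against 3.06 CPM, 21.0-fold (8.97 to 59.9) higher, and had UMIs in 28 of 110 nuclei. Lhpp was at 225 CPM in 55 nuclei against 24.0 CPM, 9.39-fold (6.77 to 13.3) higher. Tbx3os1 was at 36.7 against 3.06 CPM, 12.0-fold (4.87 to 35.4) higher, Cyp2c38 at 73.3 against 7.65 CPM, 9.58-fold (5.34 to 18.2) higher, and Oat at 134 against 35.2 CPM, 3.79-fold (2.77 to 5.23) higher. Susd4, an inhibitor of complement, was at 91.7 against 12.2 CPM, 7.49-fold (4.65 to 12.4) higher, and at 122 against 37.1 CPM in the wild-type library.

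The long noncoding RNAs Meg3 and Rian, expressed from the maternal copy of the imprinted Dlk1-Dio3 region, were high in a minority of Cox10-/- pericentral nuclei. Meg3 (chr12:109541001-109571726) was at 615 CPM in pericentral and 133 CPM in marker-free nuclei, 4.64-fold (3.98 to 5.42) higher. Its 470 UMIs lay in 34 of 110 nuclei, 17 of which held at least 10 and 1 of which held 71. Rian (chr12:109603940-109661716) was at 113 against 24.5 CPM, 4.60-fold (3.19 to 6.69) higher. In the other-cell nuclei of this library Meg3 was at 15.4 CPM, so its level there was far under that in either hepatocyte group. Cyp2c39, a P450 of the Cyp2c cluster, was at 319.5 CPM in 67 nuclei against 74.5 CPM, 4.29-fold (3.48 to 5.30) higher, and Pdzrn3, a ubiquitin ligase, at 266 against 55.6 CPM, 4.78-fold (3.77 to 6.09) higher.

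Pdk4, the kinase that shuts off pyruvate dehydrogenase when fat is burned, was at 102 CPM in 21 pericentral nuclei against 5.10 CPM, 20.02-fold (10.3 to 43.4) higher. Areg, a ligand of the epidermal growth factor receptor, was at 45.8 CPM in 11 nuclei against 3.06 CPM, 14.97-fold (6.23 to 43.5) higher, and 1 nucleus held 17 of its 35 UMIs. Kif26b, a kinesin-like protein of Wnt5a signalling, was at 48.5 against 2.55 CPM, 18.99-fold (7.45 to 61.9) higher, and Fosb, an AP-1 subunit induced early after stimulation, at 79.9 against 12.2 CPM, 6.52-fold (4.01 to 10.9) higher.
Another set of nuclei carried Pdk4 and Areg more strongly. The 45 Cox10-/- nuclei with at least 4 marker UMIs but under the Cps1 and Cyp2e1 limit had 1010.1 CPM of Pdk4 in 30 nuclei, 346 CPM of Areg in 18 and 781 CPM of Nrg1 in 23, and 25 of them had at least 5 other-cell marker UMIs. Nrg1, a further ligand of this receptor family looked up after its values were seen, was at 52.4 CPM in pericentral and 36.7 CPM in marker-free nuclei. Whether RNA of those nuclei enters the Pdk4 and Areg values of the pericentral nuclei was not tested.

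The genes farthest below the marker-free nuclei in the Cox10-/- library included several that were also frequent in nuclei under the hepatocyte limit. At 2000 UMIs per nucleus, Zfpm2 had a UMI in 45.4%, Stab2 in 37.1%, Hecw2 in 41.8% and Adam23 in 45.2% of the 2299 Cox10-/- nuclei under the hepatocyte limit. Inpp4b had 0 UMIs in pericentral nuclei against 35.2 CPM in marker-free nuclei, at least 8.96-fold lower with a floor of 3 UMIs over the group. Stab2, a scavenger receptor of sinusoidal endothelium, was at 13.1 against 91.8 CPM, 7.01-fold (3.73 to 14.9) lower. Zfpm2, a GATA cofactor, was at 1.31 against 39.8 CPM, and Grm8, a glutamate receptor, at 7.86 against 83.2 CPM, 10.6-fold (4.76 to 29.3) lower. St6galnac3, Hecw2, Nkain2, Rbms3, Arhgap10 and Adam23 were between 6.32-fold lower and 22.2-fold lower. Endothelial markers summed to 78.6 CPM in pericentral and 320 CPM in marker-free nuclei of this library, and without nuclei that held at least 5 other-cell marker UMIs the log2 ratio of Stab2 went to 0.60 and that of Rbms3 to 0.04. Cryl1, a liver enzyme of the glucuronate pathway, was at 14.4 against 92.4 CPM, 6.41-fold (3.50 to 13.1) lower.

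Periportal enzymes were lower in this library too. Sds was at 284 against 1028 CPM, 3.62-fold (3.14 to 4.18) lower, Hal at 145 against 394 CPM, 2.71-fold (2.22 to 3.34) lower, and Gls2 at 107 against 286 CPM, 2.66-fold (2.11 to 3.40) lower. Etnppl was at 181 against 593 CPM, 3.28-fold (2.75 to 3.95) lower, and the P450 Cyp2f2, a classic periportal marker, at 138 against 266 CPM, a ratio of 0.517 (0.415 to 0.639), against 0.650 (0.471 to 0.875) in the wild-type. Arg1 was not called in this library, at 866 against 1245 CPM, a ratio of 0.696 (0.637 to 0.758).

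Values just inside and just outside the limit of 4 marker UMIs are given as a description. Slc1a2 was at 63.1 CPM in wild-type nuclei with 3 marker UMIs and 507 in those with exactly 4, and at 44.6 and 65.0 in the Cox10-/- library. Lhpp was at 105 CPM in the 37 wild-type nuclei with 3 marker UMIs, at 53.4 in the 11 with exactly 4 and at 255 in all with at least 4. The matching Cox10-/- values were 49.1 CPM over 40 nuclei, 95.4 over 30 and 225 over all 110. Slc22a3 ran through 5.26, 26.7 and 115 CPM in the wild-type and 8.92, 26.02 and 64.2 CPM in the Cox10-/- library. Sds was lower inside the limit, at 749.7, 486 and 284 CPM in the Cox10-/- library and 358, 133 and 218 CPM in the wild-type. The Slc22a3 values of wild-type nuclei with 3 and exactly 4 marker UMIs rest on 1 UMI each. In the 11 with exactly 4, 1 UMI is 26.7 CPM, so the Lhpp and Sds values there rest on few UMIs too. Median depth was 4684 UMIs at 3 and 3066 at exactly 4 marker UMIs in the wild-type, and 5560 and 7519.5 in the Cox10-/- library.

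**Figure D3:**
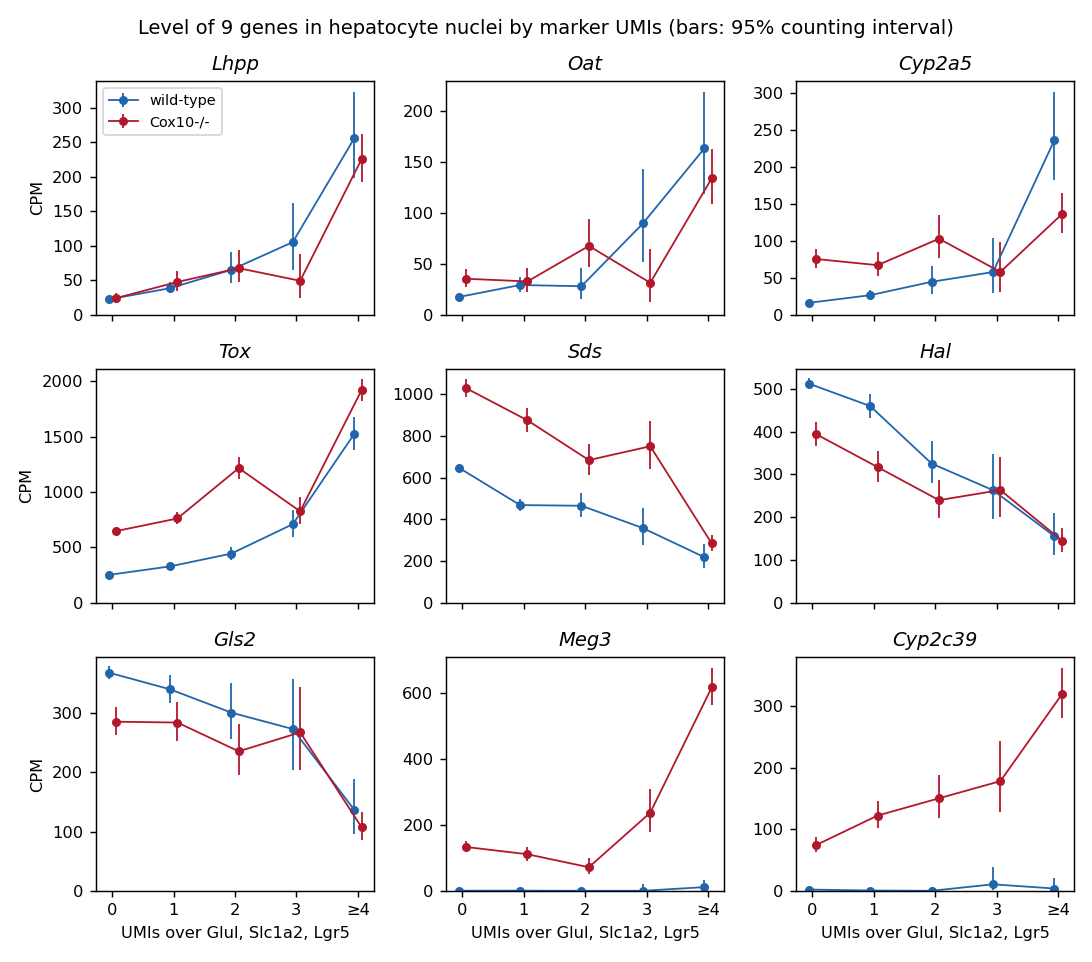
CPM (y axis) of 9 genes in hepatocyte nuclei with 0, 1, 2, 3 and at least 4 UMIs over Glul, Slc1a2 and Lgr5 (x axis), in the wild-type and Cox10-/- library, with 95% counting intervals as bars. Lhpp, Oat and Tox are highest at 4 or more marker UMIs in both libraries, and Sds, Hal and Gls2 are lower there than at 0.

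Of 3962 genes that entered in both libraries, 94 were called higher in both, which is 36.2% of the 260 called in the wild-type and 47.0% of the 200 called in the Cox10-/- library. Lower in both were 37 genes, 24.7% of 150 and 20.3% of 182, and 7 were called in opposite directions. The log2 ratios of the 2 libraries had a Pearson r of 0.446 and a Spearman rho of 0.282 across these genes, which are not independent replicates and often rest on few UMIs. Tox, an HMG-box nuclear factor named after its values were seen, was at 1525 against 251 CPM in the wild-type, 6.07-fold (5.46 to 6.73) higher. For Cox10-/- nuclei Tox was at 1921 against 647 CPM, 2.97-fold (2.75 to 3.20) higher, while its other-cell nuclei held 295 CPM. Aldh3a2, a fatty aldehyde dehydrogenase, was 3.83-fold (2.58 to 5.50) higher in the wild-type library and 3.70-fold (2.91 to 4.72) in the other. Slc16a10, a carrier of aromatic amino acids, had ratios of 4.18 and 2.52.

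Among genes of the Wnt/beta-catenin pathway, the feedback ligases were higher in both libraries. Rnf43 and Znrf3 encode ubiquitin ligases that remove Wnt receptors from the cell surface. Rnf43 was at 270.1 against 106 CPM in the wild-type, 2.55-fold (1.98 to 3.23) higher, and at 225 against 99.0 CPM in the Cox10-/- library, 2.28-fold (1.84 to 2.81) higher. Znrf3 was at 407 against 222 CPM, 1.83-fold (1.498 to 2.22), and at 498 against 230.1 CPM, 2.16-fold (1.88 to 2.48). Of 20 Wnt targets and feedback genes, 3 entered in the wild-type, with 2 called higher and 0 lower, and 6 in the Cox10-/- library, with 4 called higher and 0 lower. Notum, a secreted enzyme that inactivates Wnt, was 2.99-fold (1.52 to 5.96) higher there, and Tnfrsf19, a receptor of the TNF family, was at 31.4 against 6.12 CPM, 5.13-fold (2.47 to 11.3) higher. Axin2, the usual Wnt target used as a readout and looked up by name, had only 5 wild-type and 6 Cox10-/- UMIs in pericentral nuclei and did not enter.

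Among receptors and core parts of the pathway the few calls in the wild-type library were near the shares over all genes, 6.76% higher and 3.77% lower. Of 27 listed genes, 10 entered in the wild-type with 1 called higher and 1 lower (median -0.03), and 15 in the Cox10-/- library with 3 called higher and 1 lower (median -0.08), beside 4.94% and 5.77% of all genes. Lrp5, a Wnt co-receptor, was at 55.5 against 28.4 CPM in the wild-type, 1.95-fold (1.08 to 3.27), and at 86.4 against 31.6 CPM in the Cox10-/- library, 2.73-fold (1.90 to 3.93) higher. Tcf7l1, a Tcf factor that mostly represses targets, was lower in both, at 81.4 against 192 CPM, a ratio of 0.424 (0.265 to 0.644), and at 36.7 against 91.8 CPM, a ratio of 0.399 (0.258 to 0.597). Bcl9 and Bcl9l, coactivators of beta-catenin, were 1.84-fold (1.09 to 3.07) and 1.59-fold (1.11 to 2.24) higher in the Cox10-/- library.

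Genes of glutamine, glutamate and ammonia handling were called in both directions. Of 26 listed, 15 entered in each library. In the wild-type 3 were called higher and 1 lower (median -0.01), and in the Cox10-/- library 2 higher and 2 lower (median -0.16). Over all genes 6.76% were called higher and 3.77% lower in the wild-type, and 4.94% and 5.77% in the Cox10-/- library. Oat was the farthest above 1 and Gls2 the farthest below 1 among them in both libraries. Prodh and Aldh4a1, successive enzymes of proline breakdown to glutamate, were 1.54-fold (1.11 to 2.09) and 1.63-fold (1.24 to 2.09) higher in the wild-type. In the Cox10-/- library Slc25a22, a mitochondrial glutamate carrier, was 1.60-fold (1.34 to 1.91) higher, and Got1, the cytosolic aspartate aminotransferase, had a ratio of 0.628 (0.575 to 0.685). Of 11 genes of the urea cycle and its supply, 8 entered in each library, with 2 called lower in the wild-type (Arg1 and the arginine carrier Slc7a2; list median -0.32) and 0 called in the Cox10-/- library (median -0.15).

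Drug-metabolising P450 genes were called higher more broadly in the wild-type library, a difference between libraries that was not tested. Of 34 listed, 10 of 20 that entered were called higher and 0 lower (median 0.57), and in the Cox10-/- library 3 of 23 were called higher and 1 lower (median 0.19). Shares over all genes were 6.76% higher and 3.77% lower in the wild-type, and 4.94% and 5.77% in the Cox10-/- library. Cyp3a11 was at 189 against 38.8 CPM in the wild-type, 4.86-fold (3.56 to 6.51) higher. In the Cox10-/- library it was at 759.5 against 638 CPM, a ratio of 1.19 (1.08 to 1.32), and 85.7% of the other-cell nuclei of this library had a Cyp3a11 UMI. Cyp2c29 had a ratio of 3.22 (2.72 to 3.78) in the wild-type library and 1.15 (0.947 to 1.39) in the Cox10-/- one, and Cyp1a2, which metabolises caffeine, of 2.78 (1.84 to 4.04) and 1.30 (1.02 to 1.66). Cyp2a5 had a ratio of 1.80 (1.39 to 2.33) in the Cox10-/- library, where it stood at 136 CPM in pericentral, 75.5 in marker-free and 87.7 CPM in other-cell nuclei. Cyp3a11 and Cyp2a5 thus had high levels outside pericentral nuclei in the Cox10-/- library. Of 33 conjugation genes, 16 entered in the wild-type with 3 called higher and 0 lower (median 0.37), and 22 in the Cox10-/- library with 2 higher and 3 lower (median -0.13). Sult2a8, a bile acid sulfotransferase, was higher in both, 1.61-fold (1.43 to 1.80) and 1.81-fold (1.48 to 2.21).

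Nuclear receptors included 4 called higher in both libraries. Of 28 listed, 20 entered in the wild-type with 7 called higher and 1 lower (median 0.25), and 26 in the Cox10-/- library with 4 higher and 1 lower (median 0.13). Over all genes the shares were 6.76% higher and 3.77% lower in the wild-type, and 4.94% and 5.77% in the Cox10-/- library. Ahr, the aryl hydrocarbon receptor, was at 148 against 47.9 CPM, 3.09-fold (2.18 to 4.26), and at 369 against 139 CPM, 2.65-fold (2.24 to 3.14) higher. Nr1i3, the xenobiotic sensor CAR, had ratios of 2.18 (1.75 to 2.70) and 1.86 (1.55 to 2.24). Esrrg, an orphan receptor of energy metabolism, had ratios of 6.46 (4.97 to 8.29) and 2.81 (1.68 to 4.74), and Pparg in the Cox10-/- library was at 49.8 against 16.3 CPM, 3.05-fold (1.85 to 5.04) higher. Esr1, the oestrogen receptor, was called lower in the wild-type, at a ratio of 0.546 (0.328 to 0.856).

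Bile acid genes held early enzymes of synthesis that were higher in pericentral nuclei of both libraries. Of 22 listed, 18 entered in each, with 6 called higher and 2 lower in the wild-type (median 0.28) and 6 higher and 0 lower in the Cox10-/- library (median 0.19). Beside these, 6.76% of all genes were called higher and 3.77% lower in the wild-type, and 4.94% and 5.77% in the Cox10-/- library. Cyp7a1, which controls the first step of the classic route from cholesterol, was at 248 against 76.9 CPM, 3.22-fold (2.47 to 4.13), and at 72.0 against 28.1 CPM, 2.57-fold (1.73 to 3.80) higher. Cyp27a1, which starts the alternative route, was at 674 against 300.1 and at 672 against 311 CPM, ratios of 2.24 (1.92 to 2.61) and 2.16 (1.92 to 2.43). Cyp7b1, the next enzyme of that route, had ratios of 2.06 (1.80 to 2.34) and 1.67 (1.35 to 2.06). Among transporters, the uptake carrier Slco1b2 had ratios of 1.98 (1.83 to 2.14) and 1.88 (1.75 to 2.03) and the canalicular phospholipid exporter Abcb4 of 1.60 (1.39 to 1.83) and 1.85 (1.71 to 1.996). Cyp39a1, an oxysterol hydroxylase, was lower in the wild-type, with a ratio of 0.349 (0.140 to 0.721), as was the bile acid carrier Slc10a1, with 0.574 (0.389 to 0.818).

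Lipid and energy genes differed by list. Of 21 fatty acid synthesis genes, 5 of 17 that entered were called lower and 0 higher in the wild-type (median -0.36), among them Acly at 0.346 and the regulator Srebf1 at 0.420. Among the Cox10-/- values 2 of 18 were called higher and 1 lower (median 0.05). Shares over all genes were 6.76% higher and 3.77% lower in the wild-type, and 4.94% and 5.77% in the Cox10-/- library. Of 31 genes of fatty acid oxidation and ketogenesis, 2 of 23 were called higher and 0 lower in the wild-type (median -0.03) and 6 of 27 higher and 1 lower in the Cox10-/- library (median 0.17), including Pdk4, Acot1, which cleaves acyl-CoA, at 5.77-fold (2.39 to 15.3), and Cyp4a10, a fatty acid hydroxylase, at 2.90-fold (1.74 to 4.86). Cyp4a10 was also higher in the wild-type, 2.40-fold (1.79 to 3.16).
Of 48 nuclear-encoded respiratory chain genes, 0 of 25 that entered were called in the wild-type (median -0.08), while 14 of 48 were called lower and 0 higher in the Cox10-/- library (median -0.49). Cytoplasmic ribosomal protein genes were lower there too, with 8 of 35 called lower and 0 higher (median -0.51), against 1 lower of 12 in the wild-type (median -0.26). Ndufb5, a subunit of complex I, had a ratio of 0.352 (0.162 to 0.684) and Cox7c, of cytochrome c oxidase, of 0.469 (0.332 to 0.648) in the Cox10-/- library. Pericentral nuclei of that library were deeper (median 6508.5 against 3825 UMIs). When nuclei were chosen after thinning each to 2000 UMIs, with at least 2 marker UMIs against 0, 1 respiratory chain and 0 ribosomal protein genes were called lower there, with medians of -0.19 and -0.15. All 13 mitochondrially encoded transcripts entered and 0 were called in either library, with medians of -0.28 and -0.27.

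**Figure D4:**
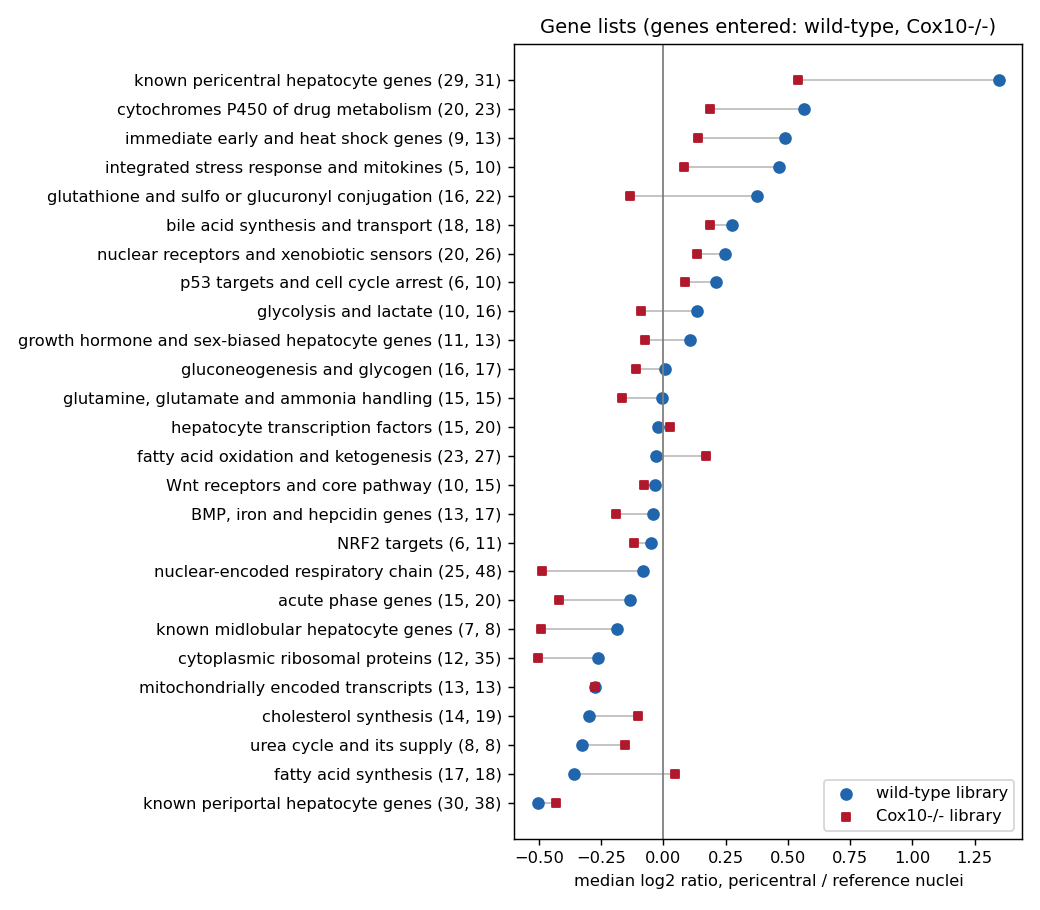
Median log2 ratio of CPM in pericentral over marker-free nuclei (x axis) for 26 gene lists (y axis) in the wild-type and Cox10-/- library. The known pericentral list lies farthest to the right in the wild-type (1.35), and the respiratory chain and ribosomal lists lie near -0.50 in the Cox10-/- library.

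Few genes of the stress and growth lists entered. Of 18 immediate early and heat shock genes, 3 of 9 were called higher in the wild-type library and 2 of 13 in the Cox10-/- one, with 0 lower. Atf3, a stress-induced repressor, was in both, at 111 against 35.1 CPM, 3.17-fold (2.11 to 4.59), and at 416 against 157 CPM, 2.66-fold (2.27 to 3.12). Gdf15, a circulating signal of mitochondrial stress, was 2.40-fold (1.88 to 3.07) higher and Ddit4, an inhibitor of mTORC1, had a ratio of 0.367 (0.127 to 0.867) in the Cox10-/- library. Of 31 cell cycle genes only 2 entered in the wild-type library and 4 in the Cox10-/- one, and the single call was Cdk6 in the wild-type, 1.91-fold (1.37 to 2.59) higher. Among hepatocyte transcription factors, Cebpa had a ratio of 0.292 (0.0946 to 0.685), with a log2 ratio of 0.02 for nuclei chosen by Glul and Lgr5 alone, and Onecut1 of 0.519 (0.357 to 0.731) in the wild-type library, the 2 calls among 15 of the 23 listed that entered there. In the Cox10-/- library 1 of 20 was called higher and 1 lower, near the shares over all genes of 4.94% and 5.77%. In the wild-type library the shares over all genes were 6.76% higher and 3.77% lower.

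Within the Cox10-/- pericentral nuclei, the zonal genes followed Slc1a2. The split was made after the values were seen, and since Slc1a2 helped choose the nuclei it is given as a description. The 47 nuclei with at least 2 Slc1a2 UMIs had a median of 5462 UMIs, and the 47 with none had 7812. Lhpp was at 419 CPM in the former and 103 in the latter, Oat at 249 and 64.2, Slc22a3 at 141 and 25.7 and Tox at 2916 and 1336. Periportal genes were reversed, with Arg1 at 278 and 1213 CPM, Sds at 119 and 398 and Hal at 68.7 and 185. The nuclei without Slc1a2 still lay above the marker-free level of Lhpp (24.0 CPM) and Oat (35.2 CPM). Their Arg1 level was near the marker-free level given above, whereas Sds and Hal were below theirs. In 32 of these 47 nuclei Glul was the only marker gene with a UMI. Glul itself was at 1062 and 655 CPM. Pdk4 was concentrated in the nuclei with Slc1a2, at 267 CPM in 18 nuclei against 5.14 CPM in 2, and so was Kif26b, at 123 against 7.71 CPM.
In the wild-type only 9 nuclei lacked Slc1a2, and Lhpp was at 296 CPM in the 55 with at least 2 UMIs against 124 CPM in those 9.

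The same nuclei were also split by Meg3, and this split overlapped with the one by Slc1a2. Of the 30 nuclei with at least 10 Slc1a2 UMIs, 14 had a Meg3 UMI. The 34 Cox10-/- pericentral nuclei with a Meg3 UMI had a median of 6751.5 UMIs and the 76 without had 6498, so depth was alike. Slc1a2 was at 2579 CPM with and 809.8 CPM without Meg3, Lhpp at 349 and 173, Arg1 at 291 and 1108 and Hal at 44.2 and 188. Rian was at 375 CPM with and 1.86 CPM without Meg3. Pdk4 was not aligned with Meg3, at 57.4 CPM with and 121 CPM without it, and of 21 nuclei with a Pdk4 UMI 3 had Meg3.

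Between the libraries, Cox10-/- and wild-type pericentral nuclei were set side by side with the same ratio in marker-free nuclei. In pericentral nuclei 396 of 4033 genes (9.82%) were called higher and 345 (8.55%) lower in Cox10-/-. In marker-free nuclei 1476 of 9475 (15.6%) were called higher and 718 (7.58%) lower. Cox10, the targeted gene, had 9 UMIs (33.3 CPM) in wild-type and 31 UMIs (40.6 CPM) in Cox10-/- pericentral nuclei, and 35.1 and 49.5 CPM in marker-free nuclei, so it was not lower in the library labelled Cox10-/-. Which exons the allele loses is not given in the sources used here, and a 3' tag outside them checks nothing. The Y-linked gene Ddx3y was at 107 and 155 CPM and Xist at 0 UMIs in both. The share of mitochondrially encoded UMIs moved with the groups, with medians of 9.68% in wild-type and 3.01% in Cox10-/- pericentral nuclei. When only nuclei with a share of at most 10% were used, the 98 genes called among the 118 chosen by the naming rule in this comparison kept their direction and 75 were still called. These genes were picked by their ratio in this comparison and the nuclei overlap, so a kept direction was likely beforehand. A limit of 10% also does not match the libraries for this share, so no conclusion is drawn from it.

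The maternally expressed RNAs Meg3 and Rian were among the 12 genes farthest above the wild-type. Meg3 was at 615 CPM in Cox10-/- and 11.1 CPM (3 UMIs) in wild-type pericentral nuclei, 55.4-fold (18.9 to 269.8) higher, and at 133 against 0.262 CPM in marker-free nuclei. This ratio depends on the Cps1 and Cyp2e1 limit. The 34 wild-type nuclei with at least 4 marker UMIs under that limit held 288 CPM of Meg3, in 4 nuclei with at most 15 UMIs. The 45 such Cox10-/- nuclei held 45.9 CPM, in 5 nuclei. Rian had 0 UMIs in the wild-type pericentral nuclei and was at least 10.1-fold higher, with a floor of 3 UMIs over that group. Cyp2c39 was at 319.5 against 3.70 CPM, the latter from 1 UMI, a ratio of 86.3 (15.4 to 3424). Gstp3, a glutathione transferase, was at 85.1 CPM against 0 UMIs, at least 7.67-fold higher, and its Cox10-/- other-cell nuclei held 114 CPM. Like the Cyp2c genes it has near-identical relatives, as do the Ugt2 genes, so the split between members is uncertain. Fosb was at least 7.20-fold higher, Sdk1 at least 10.6-fold higher, Osbpl3 at least 9.08-fold higher, Col4a3 at least 7.55-fold higher, Pakap.1 at least 7.55-fold higher and Gpat3 at least 7.20-fold higher, all against 0 UMIs in the wild-type. Lrmda was at 560.5 against 48.1 CPM, 11.7-fold (6.74 to 22.1) higher, and Mt2, a metallothionein, at 105 against 3.70 CPM, a ratio of 28.3 (4.94 to 1132). With 66 wild-type nuclei these ratios rest on very few wild-type UMIs.

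Most immediate early genes that entered were higher in Cox10-/- than in wild-type nuclei, pericentral and marker-free alike. Of 18 listed, 10 of 11 that entered were called higher and 0 lower, with a median log2 ratio of 1.33 against 0.02 over all genes, and in marker-free nuclei 14 of 15 were called higher and 0 lower (median 1.60 against 0.05). Fos was 4.04-fold (1.87 to 10.4), Btg2 4.18-fold (3.01 to 5.96) and Atf3 3.75-fold (2.58 to 5.65) higher, and in marker-free nuclei Btg2 had a ratio of 3.94. Of 24 genes of the integrated stress response, 5 of 6 were called higher and 0 lower in pericentral nuclei (median 1.12) and 8 of 14 higher and 0 lower in marker-free nuclei (median 0.97). In pericentral nuclei Gdf15 was at 173 against 44.4 CPM, 3.89-fold (2.16 to 7.73). Of 19 NRF2 targets, 5 of 7 were called higher and 0 lower (median 0.79), against 5 of 11 higher and 1 lower in marker-free nuclei (median 0.49). By comparison, 9.82% of all genes were called higher and 8.55% lower in pericentral nuclei, and 15.6% and 7.58% in marker-free nuclei. The pericentral ratio of Gclc, which makes the precursor of glutathione, was 1.93-fold (1.36 to 2.82). Saa1, an acute phase protein, was 20.5-fold higher, and 26.4-fold in marker-free nuclei.

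Several zonal and bile acid genes were lower in the Cox10-/- pericentral nuclei. Of the known pericentral list 12 of 30 were called lower and 4 higher (median -0.42, and -0.05 for nuclei chosen by at least 2 UMIs of Glul and Lgr5 alone), and of the periportal list 9 of 32 were called higher and 0 lower (median 0.31). In marker-free nuclei 13 of 34 pericentral genes were called higher and 5 lower (median 0.11), and 12 of 39 periportal genes higher and 3 lower (median 0.35). Across all genes, 9.82% were called higher and 8.55% lower in pericentral nuclei, and 15.6% and 7.58% in marker-free nuclei. The 4 of 30 called higher and the 3 of 39 called lower lie near these shares. Cyp2c37 was at 9.17 against 144 CPM, 15.7-fold (6.96 to 41.7) lower, while its ratio was 0.907 in marker-free nuclei. Cyp2c38 was 4.79-fold (3.41 to 6.79) lower. Cyp7a1 was at 72.0 against 248 CPM, 3.44-fold (2.37 to 5.01) lower, and Cyp7b1 at 196 against 884 CPM, 4.50-fold lower. Cyp2c38, Cyp7a1 and Cyp7b1 were also lower in Cox10-/- than in wild-type marker-free nuclei, so their lower levels were not particular to pericentral nuclei. Of the 22 bile acid genes 6 of 18 were called lower and 2 higher (median -0.41), much as in marker-free nuclei, with 6 of 19 lower and 2 higher (median -0.44). Cyp3a11 went the other way, 4.02-fold (3.02 to 5.47) higher in pericentral and 16.4-fold in marker-free nuclei.
Slc1a2 was at 0 in 47 of the 110 Cox10-/- and 9 of the 66 wild-type nuclei, and these ratios are not matched for it.

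Other genes lower in Cox10-/- pericentral nuclei had varied roles. Sgcz was at 2.62 against 226 CPM, 86.2-fold (22.9 to 728) lower, and at 4.08 against 8.83 CPM in marker-free nuclei. Gna14, a G protein subunit, was 27.3-fold (8.47 to 140.1) lower, and Prex2, an exchange factor for Rac, 14.9-fold (7.74 to 31.5) lower. Sult2a8 was at 225 against 1110.2 CPM, 4.93-fold (4.07 to 5.98) lower, and at 125 against 692 CPM in marker-free nuclei, so it was lower in both kinds of nuclei. Esrrg was at 44.5 against 266 CPM, 5.98-fold lower, and Ugt2a3, a glucuronosyltransferase, 7.06-fold lower. Marker-free nuclei of the Cox10-/- library also held less Esrrg than those of the wild-type. Nudt7, a peroxisomal hydrolase of coenzyme A, was 5.82-fold lower, and Grm8, Sntg1, Dlgap1 and Ces3b were 13.7-fold lower, 8.69-fold lower, 6.75-fold lower and 5.65-fold lower.

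**Figure D5:**
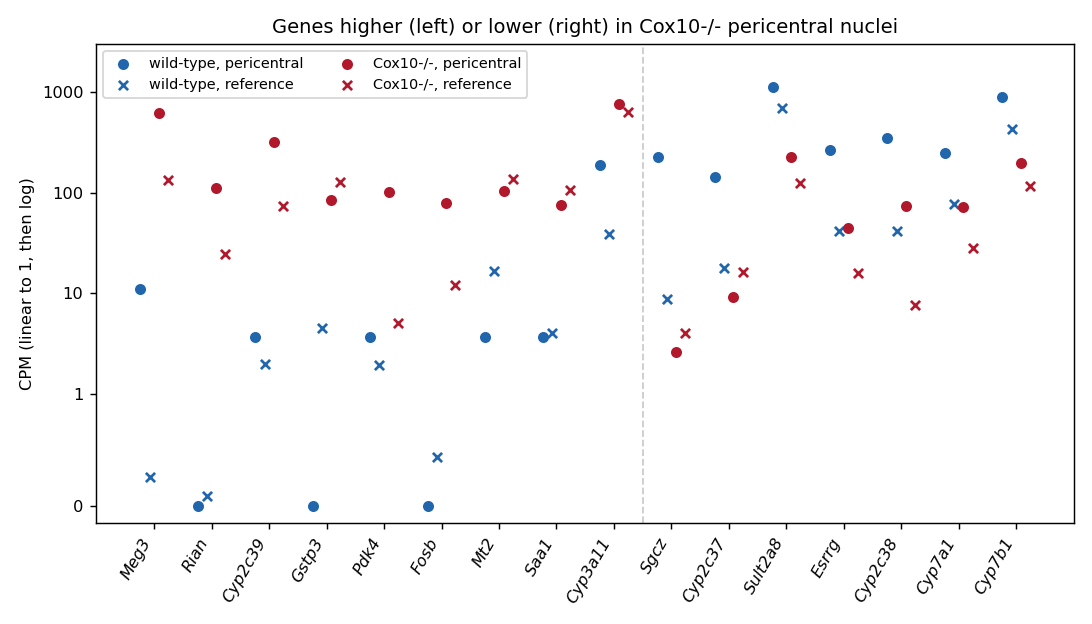
CPM (symmetric log axis) of 16 genes in pericentral and marker-free nuclei of the wild-type and Cox10-/- library, 1 point per group and gene. Marker-free nuclei are called reference in the legend. Rian, Gstp3 and Fosb are at 0 in the wild-type pericentral nuclei, and Sgcz and Cyp2c37 are below 10 CPM in the Cox10-/- ones.

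Metabolic lists are given beside the shares over all genes, 9.82% higher and 8.55% lower in pericentral and 15.6% higher and 7.58% lower in marker-free nuclei. Of 21 fatty acid synthesis genes 7 of 17 were called higher and 1 lower in Cox10-/- pericentral nuclei (median 0.27), against 5 of 21 higher and 6 lower in marker-free nuclei (median 0.07). In pericentral nuclei Acly was at 4.36-fold (2.70 to 7.50) and Srebf1 at 3.82-fold. Of 11 urea cycle genes 5 of 8 were called higher and 0 lower (median 0.65), against 2 of 9 higher and 1 lower in marker-free nuclei (median 0.35), and Arg1 was 1.87-fold (1.54 to 2.28) higher, a sign that turned when only nuclei with at least 2 Slc1a2 UMIs were used (log2 ratio -0.47). Of 13 mitochondrially encoded transcripts 11 were called lower and 0 higher (median -1.09), and the same counts with a median of -1.12 were found in marker-free nuclei. Of 48 nuclear-encoded respiratory chain genes 3 of 27 were called higher and 0 lower (median 0.16), a share near that over all genes, while in marker-free nuclei 21 of 48 were called higher and 0 lower (median 0.52). The drug-metabolising P450 list had 2 of 21 called higher, again near the share over all genes, and 7 lower (median 0.06), and the conjugation list 4 of 19 higher and 5 lower. In marker-free nuclei these lists had 8 of 26 higher and 6 lower, and 10 of 28 higher and 6 lower. Esr1 was 3.13-fold (1.94 to 5.33) and Cyp39a1 5.86-fold (2.76 to 14.9) higher, both genes that were lower in pericentral than in marker-free wild-type nuclei.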

How the data were processed

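Nuclei of 1 wild-type and 1 Cox10-/- liver were profiled, and the deposited table holds raw counts (UMIs per gene and nucleus) for 32286 genes, with no normalization. Cell Ranger 7.0 and mm10 are the tool and build named, per the submitters' processing notes. The annotation, the use of intronic reads and of strand, the counting of shared reads and the filter on nuclei were not given in the sources used. The members and gene lists were chosen with earlier results of these data known.

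UMIs were summed over the nuclei of each group (270229 and 11436784 in wild-type pericentral and marker-free nuclei, 763617 and 1959755 in Cox10-/-) and divided by the total to give CPM. Ratios carry exact conditional binomial intervals, shares Clopper-Pearson and CPM exact Poisson intervals, at 95% and for counting error only. Nuclei are not replicates, so no test was made and calls are not adjusted for the number of genes. Log2 ratios used a prior of 0.5 UMI. A count of 0 was set to a floor of 3 over the group. Thinning to 2000 UMIs used seed 7. Glul, Slc1a2, Lgr5, Cps1 and Cyp2e1 were left out of calls. No doublet caller was run, and 1 alternative left out nuclei with at least 5 other-cell marker UMIs.

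Named genes were the 12 highest and 12 lowest per comparison ranked on the end of the interval closer to 1 (20 CPM or more in the higher sum; predicted genes and those of mitochondria or sex chromosomes left out), plus for each of 30 lists up to 4 genes whose ratio was farthest from 1. Tox, Tbx3, Igf2r, Nrg1, Axin2, Abcb4, Cyp1a2, Cyp2f2, Slc10a1 and Slc16a10 were named outside this rule, after their values were seen, and Ddx3y as a check. Some genes are not reported here. Coordinates on GRCm38 come from GENCODE vM21, which held 31424 of the symbols. The alternatives were thinning, the mean over nuclei, TMM factors, other limits on markers, depth, mitochondrial share and expected UMIs, and other member rules. The script was tested on simulated data. Python 3.11.15, numpy 2.4.6, scipy 1.17.1, pandas 2.3.3, matplotlib 3.10.9, R 4.3.3 and edgeR 4.0.16 (for TMM factors alone) were used.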

Additional observations from a re-analysis of the deposited data

Results flagged for a closer look

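In the wild-type and Cox10-/- libraries 7 of the 3962 genes that entered in both were called in opposite directions for pericentral over marker-free nuclei. This difference between the libraries was not tested. Of the 3962, 260 were called higher and 150 lower in the wild-type, and 200 and 182 in the Cox10-/- library. Some intervals ended close to 1, as for Esf1 (1.007 to 2.74) and Cyp2c50 (1.05 to 2.65) in the wild-type. Higher in the wild-type and lower in the Cox10-/- library were Esf1, a nucleolar protein, with ratios of 1.72 and 0.453, Tspan14, a tetraspanin, with 2.05 and 0.417, Cyp2c50 with 1.71 and 0.642, and Pdlim1 with 2.08 and 0.462. Lower in the wild-type and higher in the Cox10-/- library were Lepr, the leptin receptor, with ratios of 0.485 and 2.71, Nav2 with 0.649 and 1.503, and Me1, the cytosolic malic enzyme, with 0.665 and 2.40.

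Outside the compared groups, 34 wild-type and 45 Cox10-/- nuclei had at least 4 marker UMIs but lay under the Cps1 and Cyp2e1 limit. The 34 wild-type nuclei held more marker RNA than the pericentral nuclei, with 4010.1 CPM of Slc1a2 and 1670.2 of Glul, together with 483 CPM of Lhpp, 229 of Oat and 1399 of Cps1, and 2 of them had at least 5 other-cell marker UMIs. These 34 nuclei also held 288 CPM of Meg3, in 4 of them. The 45 Cox10-/- nuclei had 3677 CPM of Tox, 1590.3 of Slc1a2, 134 of Lhpp and 1139 of Cps1, beside the Pdk4, Areg and Nrg1 values given above.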

How the results depend on the processing

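No paired analysis was possible because each group is 1 library. Of 98 alternative values of shares and counts of calls, 73 stayed near the reported one. Counts of calls were compared as totals, whichever genes made them up, so a near total can hold other genes. With Glul and Lgr5 alone, the 207 genes called higher in the wild-type shared 78 with the reported 269. The 132 called lower shared 22 with the reported 150. With TMM factors, 217 of the 269 and 150 of the 150 were still called that way. Thinning to 2000 UMIs gave 96 genes called lower for wild-type and 195 for Cox10-/- nuclei, and 257 higher and 178 lower in Cox10-/- against wild-type pericentral nuclei. The mean over nuclei gave 601 lower in the Cox10-/- library. At most 10% mitochondrially encoded UMIs gave a wild-type share of 2.45%. At least 3 marker UMIs gave shares of 2.59% and 17.05%, and at least 6 gave 1.26% and 7.73%. At least 2 marker UMIs after thinning gave a wild-type share of 2.97% and 219 genes lower in the Cox10-/- library. At least 2 UMIs over Glul and Lgr5 alone gave shares of 4.76% and 24.8%, and 800 higher and 562 lower in Cox10-/- against wild-type nuclei. At least 20 expected UMIs left 175 higher and 99 lower in the wild-type, fewer genes entering, and no filter gave 510 and 228, with 618 lower in the Cox10-/- library and 553 lower in Cox10-/- against wild-type nuclei. Without the Cps1 and Cyp2e1 limit, the wild-type share was 2.29%, 235 genes were lower in the wild-type and 613 higher in Cox10-/- against wild-type nuclei. This and the limit of 2 Slc1a2 UMIs were chosen after seeing the data.

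Named genes called numbered 69 in the wild-type, 91 in the Cox10-/- library and 98 between them. Many lost their call: with Glul and Lgr5 alone 31 were still called in the wild-type, 65 in the Cox10-/- library and 90 between them, and after thinning 43, 44 and 66. The genes below changed sign. With Glul and Lgr5 alone, the log2 ratio was 0.0223 for Cebpa, -0.0662 for Ldha and -0.25 for Tpi1 in the wild-type and -0.0307 for Me1 between the libraries. Without nuclei with other-cell markers Rbms3 was at 0.0422 and Stab2 at 0.60 in the Cox10-/- library, and without the Cps1 and Cyp2e1 limit at 0.00478 and 0.46. With at least 2 Slc1a2 UMIs, Arg1 was at -0.47, Hamp at -0.41 and Tcf7l1 at 0.0065 between the libraries. The cause was not tested. The median of the known pericentral list ran from 0.78 to 1.496 in the wild-type library and 0.36 to 0.87 in the Cox10-/- one, and that of the periportal list from -0.70 to -0.27 and -0.62 to -0.30. With 270229 UMIs in wild-type pericentral nuclei, genes under 10 expected UMIs did not enter, and smaller differences were not detectable at this depth.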

Other observations

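Some glycolytic genes were higher in wild-type pericentral nuclei. Of 24 listed, 10 entered in the wild-type with 4 called higher and 0 lower (median log2 0.14), namely Pfkfb3, which sets the pace of glycolysis, at 2.51-fold (1.62 to 3.72), Pgk1 at 1.99, Tpi1 at 1.98 and Ldha at 1.75. In the Cox10-/- library 16 entered, with 1 called higher and 2 lower, the latter Gapdh and Pgam1 at ratios of 0.632 and 0.463. Over all genes 6.76% were called higher and 3.77% lower in the wild-type, and 4.94% and 5.77% in the Cox10-/- library. Whether the libraries differ in this was not tested, and Ldha and Tpi1 lost their direction under the rule that used Glul and Lgr5 alone.

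Iron, heme and acute phase genes held few calls. Slc40a1, the iron exporter ferroportin, was lower in both libraries, at ratios of 0.519 (0.311 to 0.813) and 0.648 (0.462 to 0.894). Smad7, an inhibitor of BMP signalling, was at 0.421 (0.255 to 0.665) and the transferrin receptor Tfrc at 0.657 (0.434 to 0.969) in the Cox10-/- library, where 3 of 17 genes of the iron list were called lower and 0 higher. Of all genes in that library, 5.77% were called lower and 4.94% higher. Cpox, an enzyme of heme synthesis, was 1.61-fold (1.04 to 2.38) higher in the wild-type, and Blvrb, a biliverdin reductase, 1.78-fold (1.17 to 2.70) higher in the Cox10-/- library. Of 22 acute phase genes 4 of 20 were called lower and 1 higher in the Cox10-/- library (median -0.42), and Il1r1, the receptor of interleukin-1, was the gene called higher in both, at 1.99 and 1.67. In Cox10-/- against wild-type pericentral nuclei the p53 list had 3 of 6 genes called higher and 0 lower (median 0.58), beside 9.82% of all genes called higher, and in marker-free nuclei 7 of 13 higher and 0 lower (median 0.78). Among the former were Trp53inp1 at 2.87-fold (2.19 to 3.83) and Plk3 at 1.91-fold (1.34 to 2.80).

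Lhpp and Oat, both among the genes farthest above the marker-free nuclei in the wild-type library, lie near each other on chromosome 7, and Slc22a3 and Airn do so on chromosome 17.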
